A study of Mus musculus with 21 samples.

Results

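The 39 genes described here encode proteins of homologous recombination, the Fanconi anaemia pathway and the DNA damage checkpoint. They were taken by symbol from a table of 45706 genes, all 39 were found, and all 39 were among the 15230 genes that passed the filter on low counts. Their RNA was read in 21 libraries of cultured mouse mammary fibroblasts, 7 groups of 3. CAF were fibroblasts of MMTV-PyMT mammary carcinomas, a model where the promoter of a mammary tumour virus drives a viral oncogene in the gland epithelium, and NF were fibroblasts of normal FVB/n mammary glands. CAF were given siHsp90aa1, siHsp90ab1 or a control siRNA and then vehicle. NF were given siHsp90aa1, siHsp90ab1 or control siRNA and then TGFb1 at 5 ng/mL, and a further NF group had control siRNA with vehicle. The siRNAs were pools at 100 nM against the genes of the inducible (Hsp90aa1) and the constitutive (Hsp90ab1) cytosolic HSP90 chaperone. Cells were seeded at 60% confluence, serum was at 10%, and the cells were lysed for RNA 48 h after transfection. In the NF groups with TGFb1 it was added 5 h after transfection, for 43 h. The knockdowns therefore carry TGFb1 in NF and not in CAF, each kind of fibroblast is a single named line (CAF1, NF1), and the labels do not say that replicates were separate cultures, so each p reflects only how far these libraries spread.

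As background, homologous recombination repairs a broken DNA molecule by copying the sister chromatid. The MRE11 complex and EXO1 trim the ends, BRCA1, PALB2 and BRCA2 then prepare the ends, and further factors, RAD54 motors among them, help the strand exchange. The Fanconi pathway handles DNA crosslinks: a core ubiquitin ligase marks the FANCD2-FANCI clamp, the marked clamp brings in nucleases and helicases, and USP1 later removes the mark. The kinases ATM and ATR signal damage through CHK2 and CHK1, with TOPBP1, claspin and TIMELESS on the ATR side. Many of these genes are transcribed mainly in cycling cells, where E2F factors bind their promoters. Some of the proteins, CHK1 and FANCA among them, are known HSP90 clients; RNA levels do not report on protein stability.

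The 300-base promoter windows below (250 bases before and 50 after the RefSeq start, GRCm38.p6) are shown because many of the members moved together in the siHsp90aa1 comparison in CAF, where Rad54l, Fanci and Topbp1 had the smallest p after Timeless. The RefSeq window of Timeless lies 6001 bases from the start in the annotation used for the counts and is not shown. Capitals mark a motif match: the NF-Y box CCAAT in Rad54l, the E2F motif TTCCCGC read on the opposite strand in Fanci, and the E2F motif TTGGCGC in Topbp1. The windows are Rad54l on the minus strand at chr4:116123641-116123940, Fanci on the plus strand at chr7:79392088-79392387, and Topbp1 on the plus strand at chr9:103305077-103305376.
Rad54l: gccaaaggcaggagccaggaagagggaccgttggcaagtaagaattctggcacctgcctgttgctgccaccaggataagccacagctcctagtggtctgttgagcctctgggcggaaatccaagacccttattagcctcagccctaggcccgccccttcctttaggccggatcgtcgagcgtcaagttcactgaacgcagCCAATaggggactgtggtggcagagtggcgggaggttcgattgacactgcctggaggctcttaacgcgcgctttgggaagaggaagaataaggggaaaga
Fanci: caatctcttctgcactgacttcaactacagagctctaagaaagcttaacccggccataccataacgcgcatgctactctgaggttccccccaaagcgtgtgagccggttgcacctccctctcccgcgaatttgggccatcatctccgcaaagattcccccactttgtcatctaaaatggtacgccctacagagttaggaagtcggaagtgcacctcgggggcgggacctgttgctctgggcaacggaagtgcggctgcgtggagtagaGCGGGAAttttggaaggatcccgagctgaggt
Topbp1: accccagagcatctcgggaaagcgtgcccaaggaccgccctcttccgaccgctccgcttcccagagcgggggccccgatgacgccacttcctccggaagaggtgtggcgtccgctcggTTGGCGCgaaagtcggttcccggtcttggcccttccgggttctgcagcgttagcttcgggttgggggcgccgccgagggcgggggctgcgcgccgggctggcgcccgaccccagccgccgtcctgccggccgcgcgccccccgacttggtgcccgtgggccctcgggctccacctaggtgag
The CCAAT of Rad54l begins 50 bases before its start, the motif of Fanci 18 bases after its start, and that of Topbp1 132 bases before its start. The RefSeq starts of Fanci and Topbp1 lie 409 and 112 bases from the starts in the annotation used for the counts.

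Windows were held for 31 of the 39 genes. Rad51b, Rad51c and Rad54l had 2 windows each, and of Rad54l the first is shown above. A gene was counted if any of its windows held the motif. Either E2F motif (TTCCCGC or TTGGCGC, both strands) was found for 15 of the 31 genes (48.39%), against 7.79% of 27025 genes with windows of the same length. CCAAT on either strand was found in 21 (67.74%) against 41.06%, and TTTGAA, the core of the cell cycle homology region, in 2 (6.45%) against 20.23%. Of the 23 genes with a window that fell with siHsp90aa1 in CAF, 13 (56.52%) held an E2F motif, against 2 of the 8 others (25.0%). The first window of each of the 31 genes had a median GC content of 58.0%, against 52.7% over all genes with a window. The part of base composition in these shares was not tested. A match describes letters in a window and is not a measured binding site.

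Each library held between 35087162 and 70421549 estimated counts. Each siRNA lowered its target: Hsp90aa1 was 10.0% of control in CAF and 12.4% in NF, and Hsp90ab1 9.96% and 13.3%. The libraries with siHsp90ab1 also had less Hsp90aa1 RNA than their controls, at 420 ± 84.4 CPM against 883 ± 140 CPM in CAF and 292 ± 37.3 CPM against 607 ± 63.9 CPM in NF (SD, n = 3), without overlap and without a call (-1.07 ± 0.30, adjusted p = 0.123, and -1.05 ± 0.30, adjusted p = 0.0722, in edgeR). With siHsp90aa1, Hsp90ab1 differed by -0.24 in CAF and -0.16 in NF on the log2 scale (adjusted p = 0.413 and 0.58 in edgeR). Collagen genes were abundant in every library, with Col1a1 at 2207 CPM (counts scaled to library size) or more, while another fibroblast marker, Lum, was at 0 in 8 libraries and at most 1.31 CPM. The summed epithelial markers reached at most 22.2 CPM, nearly all of it Krt19, immune markers 8.50 CPM, and endothelial markers 14.2 CPM. Libraries numbered 3 had the lowest mean log2 CPM over the 39 genes in 7 of 7 groups, by 0.021 to 0.17 below the group mean. All levels below are TMM-normalised CPM in replicates 1, 2 and 3 in that order unless TPM is named, and all differences are log2 fold changes from edgeR's quasi-likelihood fit with their standard error and Benjamini-Hochberg adjusted p over 15230 genes; a gene was called at an adjusted p under 0.05.

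Per transcript length, the members were spread widely. Topbp1, which activates ATR, had the highest level at 73.2 TPM over all 21 libraries (range 33.1 to 118), followed by the deubiquitinase gene Usp1 at 67.9 TPM and the mismatch recognition gene Msh6 at 36.4 TPM. The median gene stood at 11.4 TPM. In the BRCA group Brca1 was highest at 14.4 TPM and its partner Bard1 lowest at 3.31 TPM. Among the 8 strand exchange genes the levels ran from 33.6 TPM for Rad51ap1 to 1.43 TPM for Rad51b. The Fanconi core ran from Fance at 30.3 TPM to Fancc at 5.13 TPM, and the kinase gene Atr was the lowest checkpoint gene at 7.05 TPM. Topbp1 was above Usp1 in 14 of the 21 libraries, so the order of this pair is not settled, while Topbp1 was above Msh6, Slx4 and Mre11a in all 21. The next neighbours in the order, Msh6 above Slx4 in 13 libraries and Slx4 above Mre11a in 12, were not separated either.

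In CAF most of the 39 genes were lower than in NF, both with control siRNA and vehicle. By edgeR's test 25 fell and 3 rose, where 30% of all tested genes fell and 31.6% rose. The median log2 fold change of the 39 was -0.56, against -0.0049 over all tested genes. The kinase gene Atm, the RAD54 motor gene Rad54l and the fork protection gene Timeless had the smallest p of those that fell. The genes that rose were 3 of the 8 core Fanconi genes, Fance, Fancm and Fancg. In bulk RNA, a smaller share of cells that express a gene and less of its RNA per cell cannot be told apart.

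Markers of cell state moved with this comparison too. Of 9 fibroblast markers 7 were higher and 1 lower in CAF, with a summed level of 40086 to 48843 CPM in CAF against 7785 to 10510 CPM in NF. Thy1 averaged 190 ± 9.89 CPM in CAF and 0.285 ± 0.245 CPM in NF, while Dcn averaged 16.7 ± 5.72 CPM in CAF and 397 ± 61.6 CPM in NF (SD, n = 3). Summed epithelial markers were 5.58 to 22.2 CPM in CAF against 0.400 to 0.579 CPM in NF, endothelial markers 3.56 to 6.44 against 0.305 to 0.596 CPM, and immune markers 3.93 to 5.82 against 4.99 to 5.84 CPM. Mitochondrial genes took 1.70% to 1.87% of counts in CAF against 2.19% to 4.30% in NF. The part of these differences in the changes of the 39 genes was not tested.

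Atm, which signals double-strand breaks, had 51.1, 59.1 and 54.7 CPM in CAF against 166, 128 and 136 CPM in NF (-1.38 ± 0.10, adjusted p = 1.67e-09). Rad54l had 15.6, 17.6 and 12.9 CPM in CAF against 37.3, 39.2 and 37.03 CPM in NF (-1.30 ± 0.13, adjusted p = 1.30e-07). Both genes were lower in all 3 CAF libraries than in any NF library. Brca1 had 38.5, 45.2 and 30.5 CPM in CAF and 89.3, 69.9 and 71.2 CPM in NF (-1.02 ± 0.17, adjusted p = 4.08e-05), and its partner Palb2, which links BRCA1 to BRCA2, had 5.99, 7.01 and 4.26 CPM in CAF against 11.7, 9.70 and 9.53 CPM in NF (-0.85 ± 0.20, adjusted p = 0.00111). Brca2 fell less (-0.39 ± 0.16, adjusted p = 0.0395), and Bard1 was called only with the replicate number as a block, where 33.8% of all tested genes rose and 32.5% fell (-0.56, adjusted p = 0.0571 without and 0.000118 with the block in edgeR).

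Among the strand exchange genes 4 of 8 fell, which were Rad54l, Rad54b, Rad51ap1 and Rad51c, while Rad51d, Xrcc2, Xrcc3 and Rad51b had differences of 0.024, -0.12, 0.31 and 0.22 and were not called. All 5 genes of break sensing and resection fell. Exo1, the long-range resection nuclease, had 19.5, 20.6 and 11.6 CPM in CAF against 35.02, 36.004 and 36.5 CPM in NF (-1.06 ± 0.22, adjusted p = 0.000354). The helicase gene Blm fell by about as much (-1.10 ± 0.18, adjusted p = 4.24e-05), and Mre11a, Rad50 and Nbn, whose proteins form one complex, had differences of -0.48, -0.59 and -0.65, all called.

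In the Fanconi core 3 of 8 genes rose and 2 fell, where 31.6% of all tested genes rose and 30% fell. These counts lie near those shares, so no pattern of the core is read from them. Fanca (-0.85) and Fancb (-0.52) fell, and Fance, whose product binds FANCD2, had 24.98, 22.98 and 23.3 CPM in CAF against 13.8, 20.1 and 17.6 CPM in NF (0.47 ± 0.13, adjusted p = 0.00320). Fancm, the translocase that brings the core to DNA, also rose (0.48 ± 0.13, adjusted p = 0.00462), as did Fancg (0.42 ± 0.17, adjusted p = 0.0418). Fancl, the catalytic subunit, was called higher only with the block (0.24, adjusted p = 0.0780 without and 0.0222 with it in edgeR). Downstream all 5 genes fell: Fanci, a subunit of the clamp, had 12.9, 13.1 and 11.04 CPM in CAF against 24.7, 26.1 and 24.4 CPM in NF (-1.02 ± 0.12, adjusted p = 9.98e-07), and the others, Usp1, Brip1, Fancd2 and Slx4, differed by -0.85, -0.73, -0.73 and -0.34.

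In the checkpoint group 5 of 8 fell. Timeless had 48.3, 53.2 and 42.5 CPM in CAF against 97.1, 87.6 and 85.7 CPM in NF (-0.91 ± 0.11, adjusted p = 7.40e-07), and the claspin gene Clspn (-0.80), Chek2 (-0.59) and Topbp1 (-0.30 ± 0.13, adjusted p = 0.0488) fell with it. The effector kinase gene Chek1 had 22.1, 21.97 and 16.3 CPM in CAF and 21.5, 20.6 and 19.9 CPM in NF (-0.041 ± 0.14, adjusted p = 0.814), with overlapping groups, and was not called, nor was Atr (-0.086). Msh6, a mismatch repair gene, fell (-0.82 ± 0.11, adjusted p = 4.13e-06). Of the 28 calls 25 held whichever library of the 6 was left out. Brca2 lost its call without replicate 1 or 3 of either group (adjusted p 0.0503 to 0.125), Fancg without each CAF library in turn or NF replicate 1 (0.0545 to 0.227), and Topbp1 without CAF replicate 3 (0.179) or NF replicate 1 (0.145) or 2 (0.0645).

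TGFb1 lowered part of the set in NF. The comparison shares its vehicle libraries with that of CAF against NF. By edgeR's test 16 of the 39 genes fell and 0 rose with TGFb1 against vehicle, where 14.4% of all tested genes fell and 14.6% rose. At an unadjusted p under 0.05 0 were higher and 21 lower, and DESeq2 called 0 higher and 17 lower. The shares of all tested genes by these rules were not counted. The median was -0.37, against -0.028 over all genes. With the replicate number as a block 25 fell, against 18.6% of all genes, adding Bard1, Palb2, Rad50, Blm, Fanca, Atr, Topbp1, Clspn and Chek1 (adjusted p 0.000256 to 0.0450 with the block in edgeR, 0.0645 to 0.179 without).

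Fanci had 12.5, 13.6 and 11.7 CPM with TGFb1 against 24.7, 26.1 and 24.4 CPM with vehicle (-0.99 ± 0.12, adjusted p = 8.39e-06), and its clamp partner Fancd2 had 19.7, 25.7 and 21.9 against 30.3, 35.96 and 36.6 CPM (-0.61 ± 0.13, adjusted p = 0.00123). The groups did not overlap for either gene. Atm had 89.1, 93.1 and 80.97 CPM with TGFb1 and 166, 128 and 136 CPM with vehicle (-0.71 ± 0.10, adjusted p = 3.69e-05), and its substrate kinase Chek2 had 13.5, 12.5 and 12.8 CPM with TGFb1 against 18.4, 19.9 and 19.5 CPM with vehicle (-0.58 ± 0.095, adjusted p = 0.000164). Mre11a fell to 56.5, 54.99 and 52.5 CPM with TGFb1, against 79.2, 68.9 and 71.5 CPM with vehicle (-0.42 ± 0.078, adjusted p = 0.000522). Its complex partners Rad50 (-0.35) and Nbn (-0.14) were not called.

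Of the strand exchange genes 5 of 8 fell: Rad54b (-0.67 ± 0.15, adjusted p = 0.00217), Rad54l (-0.58), Rad51ap1 (-0.52), Rad51c (-0.43) and Rad51d (-0.27). Brip1, the BRCA1-bound helicase, fell (-0.61), with Brca2 (-0.48), Brca1 (-0.45 ± 0.17, adjusted p = 0.0482), Timeless (-0.39), Msh6 (-0.35) and the only called core gene, Fancl (-0.38). Fance and Fancg had values above 0 (0.24 and 0.29) and were not called. Leaving out 1 library ended between 1 of the 16 calls (vehicle replicate 2) and 5 (vehicle replicate 1), and 9 calls held throughout; the 7 that did not were Brca1, Brca2, Brip1, Fancl, Msh6, Rad51ap1 and Rad51c (adjusted p 0.0507 to 0.184 in the fits that lost them, edgeR).

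**Figure D1:**
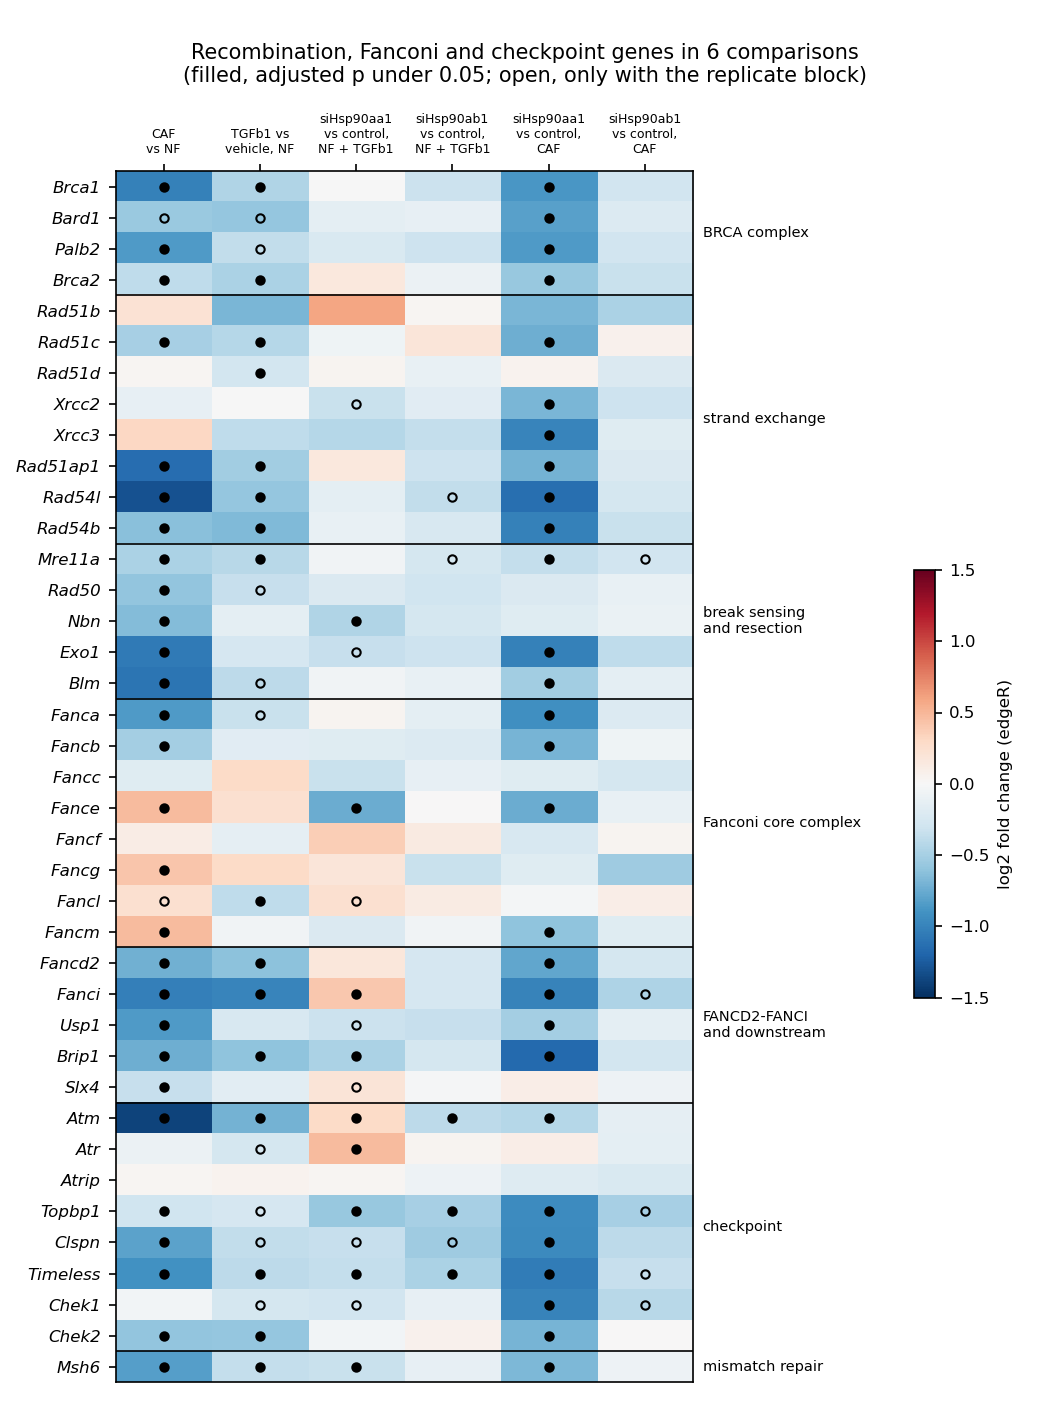
Log2 fold changes (edgeR, colour scale from -1.5 to 1.5) of the 39 genes, in rows ordered by role, in 6 comparisons, in columns; a filled dot marks an adjusted p under 0.05 and an open dot a call made only with the replicate number as a block. The siHsp90aa1 column in CAF has 28 filled dots, all on genes that fell, and the siHsp90ab1 column in CAF has none.

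Knockdown of Hsp90aa1 in CAF lowered most of the set. With siHsp90aa1 28 of the 39 genes fell and 0 rose against control siRNA (edgeR), where 12.9% of all tested genes fell and 12.5% rose. The median was -0.69, against 0.030 over all tested genes, and DESeq2 also called 28. At an unadjusted p under 0.05 29 were lower and 0 higher. The share of all tested genes was not counted for DESeq2 or for the unadjusted p. All 4 BRCA genes, 6 of 8 strand exchange genes, 3 of 5 resection genes, 4 of 8 core Fanconi genes, 4 of 5 genes downstream of them, 6 of 8 checkpoint genes and Msh6 fell. The comparison shares its control libraries with that of CAF against NF.

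Of the 8 checkpoint genes Timeless had the smallest p. It had 25.8, 24.4 and 19.04 CPM with siHsp90aa1 against 48.3, 53.2 and 42.5 CPM with control siRNA (-1.05 ± 0.11, adjusted p = 5.69e-06), and Topbp1 had 104, 111 and 81.1 against 201, 204 and 162 CPM (-0.94 ± 0.13, adjusted p = 6.47e-05). Chek1, the effector kinase, had 10.5, 11.2 and 8.38 CPM with siHsp90aa1 against 22.1, 21.97 and 16.3 CPM with control siRNA (-1.01 ± 0.14, adjusted p = 9.54e-05). No library with siHsp90aa1 reached a control library for any of these genes. Chek2 had 7.67, 7.46 and 8.53 against 12.7, 12.4 and 13.4 CPM (-0.70 ± 0.10, adjusted p = 6.76e-05), and Clspn and Atm fell (-0.95 and -0.42). Atr, with 25.02, 33.4 and 30.7 CPM after siHsp90aa1 and 25.04, 29.9 and 27.98 CPM with control siRNA, and its partner Atrip were not called (0.10 and -0.19).

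Among recombination genes Rad54l had 7.31, 8.24 and 5.50 CPM with siHsp90aa1 against 15.6, 17.6 and 12.9 CPM with control siRNA (-1.13 ± 0.14, adjusted p = 2.71e-05). Its paralog Rad54b had 4.54, 5.27 and 4.19 against 9.83, 10.9 and 7.66 CPM (-1.02 ± 0.15, adjusted p = 0.000134), and Exo1 had 9.25, 10.2 and 6.05 against 19.5, 20.6 and 11.6 CPM (-1.02 ± 0.22, adjusted p = 0.00268). For all 3 genes this was the lowest group mean of the 7. Brca1 had 21.2, 24.6 and 16.3 CPM with siHsp90aa1 against 38.5, 45.2 and 30.5 CPM with control siRNA (-0.88 ± 0.17, adjusted p = 0.00111), and Palb2, Bard1 and Brca2 fell by 0.86, 0.82 and 0.57 on the log2 scale. Of the others, Xrcc3 (-0.99), Rad51c (-0.73) and Xrcc2 (-0.68) fell. Rad51d, a subunit of the complex that holds Xrcc2 and Rad51c, had 18.7, 20.1 and 18.6 CPM with siHsp90aa1 and 17.7, 18.1 and 19.4 CPM with control siRNA (0.056 ± 0.070, adjusted p = 0.612). Rad50 (-0.22) and Nbn (-0.18) were not called, while Mre11a was (-0.36).

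In the Fanconi pathway Fanci had 6.30, 6.29 and 5.97 CPM with siHsp90aa1 against 12.9, 13.1 and 11.04 CPM with control siRNA (-0.996 ± 0.13, adjusted p = 3.43e-05), and Brip1 had 10.7, 11.7 and 7.65 against 23.4, 25.4 and 18.8 CPM (-1.17 ± 0.17, adjusted p = 0.000117). Fancd2 (-0.78) and Usp1 (-0.51) fell with them. Slx4, the nuclease scaffold, had 45.1, 47.3 and 43.4 CPM with siHsp90aa1 and 42.9, 42.1 and 41.5 CPM with control siRNA (0.10 ± 0.083, adjusted p = 0.403) and was the downstream gene with no call. In the core Fanca (-0.92), Fance (-0.74), Fancb (-0.69) and Fancm (-0.60) fell, and Fancc, Fancf, Fancg and Fancl had values of -0.18, -0.24, -0.18 and -0.032 with no call. Of the 28 calls 24 held in every fit without 1 library. Without siHsp90aa1 replicate 3, Bard1, Blm, Brca2 and Usp1 lost their calls, and without control replicate 2 Bard1, Blm and Brca2 did. Without control replicate 1 Bard1 and Blm lost theirs, and without siHsp90aa1 replicate 1 Blm and Brca2 did. The adjusted p in those fits was 0.0818 to 0.116 for Bard1, 0.0704 to 0.206 for Blm, 0.0526 to 0.0719 for Brca2 and 0.0545 for Usp1 (edgeR).

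**Figure D2:**
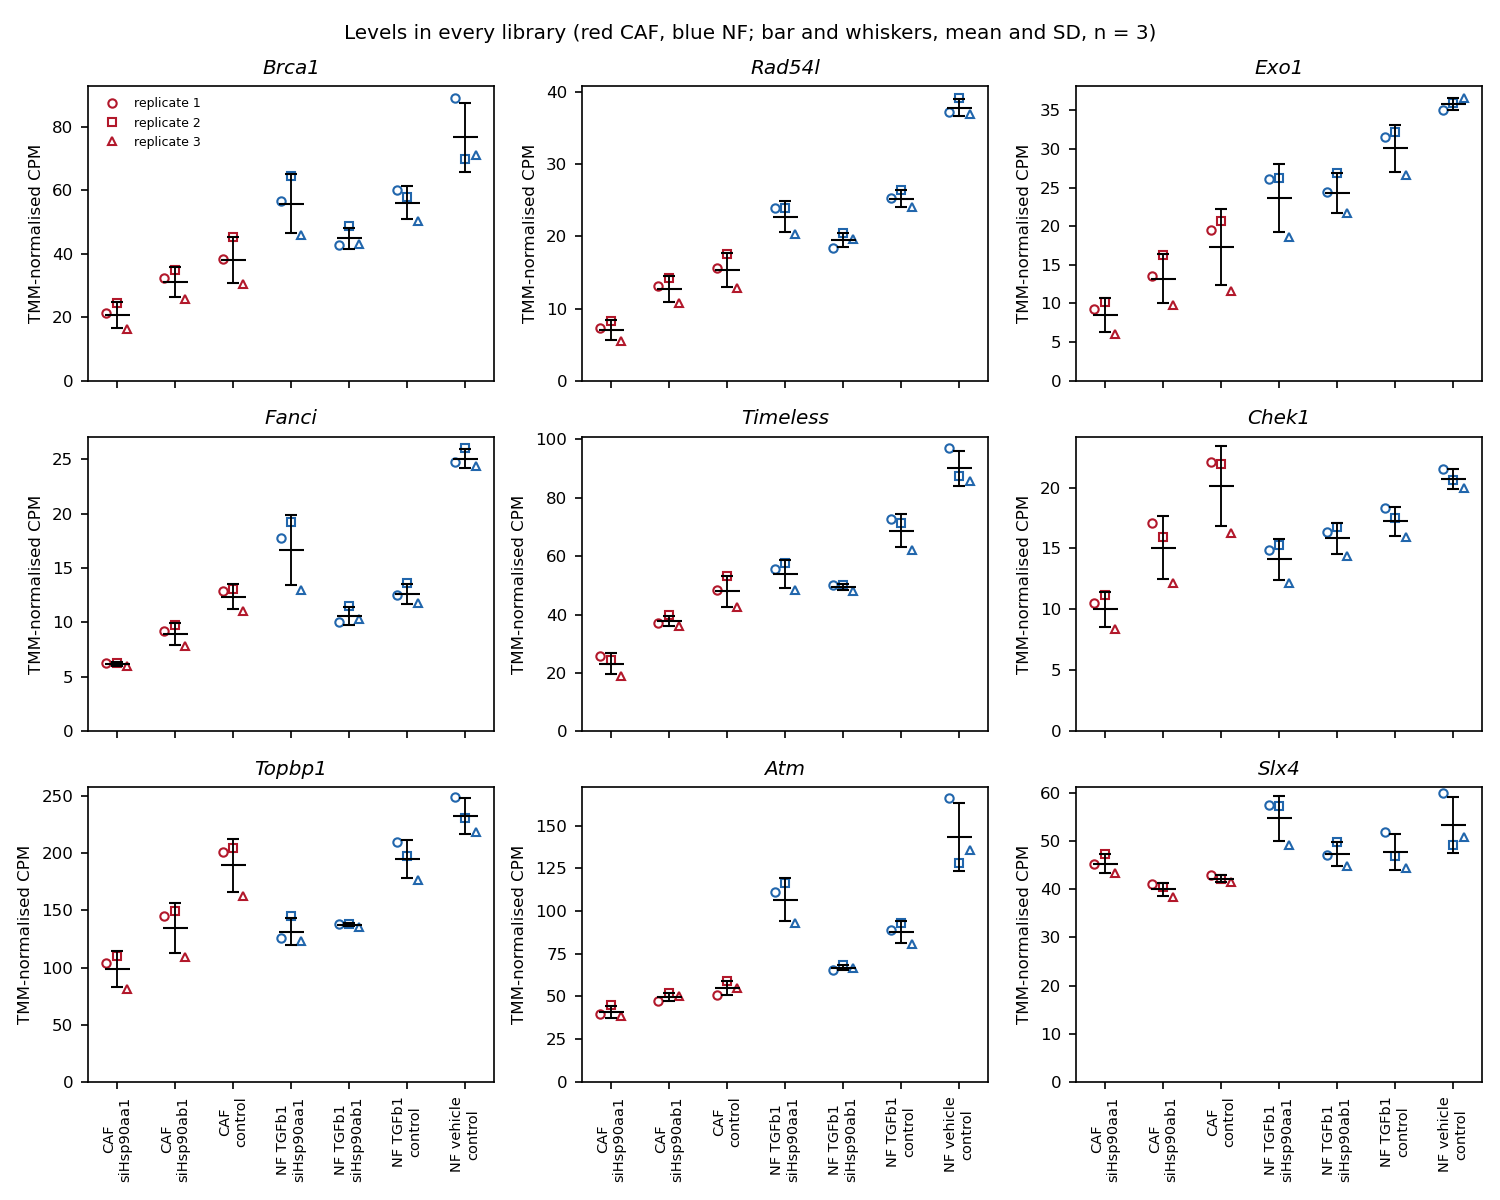
TMM-normalised CPM (linear axes from 0) of 9 genes in every library of the 7 groups, with markers for replicates 1 to 3 and a bar with whiskers for the mean and SD (n = 3), CAF in red and NF in blue. For Timeless the 3 CAF libraries with siHsp90aa1 lie between 19.0 and 25.8 CPM, below all libraries of every other group, while Slx4 stays between 38.3 and 47.3 CPM in the 9 CAF libraries.

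Knockdown of Hsp90aa1 in NF, with TGFb1 in both groups, gave a mixed result. With siHsp90aa1 6 of the 39 genes fell and 3 rose (edgeR), where 13.5% of all tested genes fell and 14.8% rose. The members' counts were no clear departure from those shares. The median was -0.11, against 0.0055 over all genes. Fance had 10.9, 11.1 and 14.4 CPM with siHsp90aa1 against 17.8, 21.97 and 20.9 CPM with control siRNA (-0.74 ± 0.13, adjusted p = 0.000356), Topbp1 had 126, 145 and 123 against 210, 198 and 177 CPM (-0.57 ± 0.13, adjusted p = 0.00285), and Nbn had 20.9, 21.99 and 19.3 against 31.8, 28.04 and 25.1 CPM (-0.45 ± 0.10, adjusted p = 0.00367). These were the calls that held without any 1 of the 6 libraries. Timeless (-0.35), Brip1 (-0.47) and Msh6 (-0.33) also fell.

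The kinase gene Atr rose, with 32.5, 36.6 and 32.7 CPM with siHsp90aa1 against 22.1, 27.5 and 23.8 CPM with control siRNA (0.47 ± 0.13, adjusted p = 0.0133). Fanci had 17.7, 19.2 and 13.02 against 12.5, 13.6 and 11.7 CPM (0.40 ± 0.12, adjusted p = 0.0203) and Atm 111, 116 and 92.7 against 89.1, 93.1 and 80.97 CPM (0.28 ± 0.10, adjusted p = 0.0424). For Fanci and Atm the lowest siHsp90aa1 library was replicate 3, and it lay within the range of the controls. Calls were lost on leaving out 1 library: Atr without control replicate 1 (adjusted p = 0.0705 in edgeR) or siHsp90aa1 replicate 2 (0.0598), and Fanci and Atm without either of these, siHsp90aa1 replicate 1 or control replicate 3 (0.0647 to 0.176). Timeless, Brip1 and Msh6 lost theirs without control replicate 1 or 2 or siHsp90aa1 replicate 3 (0.0551 to 0.149), and Brip1 and Msh6 also without siHsp90aa1 replicate 1. With the replicate number as a block 11 fell and 5 rose, against 18% and 19.3% of all genes, adding Xrcc2, Exo1, Usp1, Clspn and Chek1 among those that fell and Fancl and Slx4 among those that rose (adjusted p 0.00868 to 0.0476 with the block in edgeR, 0.0743 to 0.247 without).

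The siHsp90aa1 effect in CAF minus that in NF tests whether the knockdown differed between the lines. It differed for 12 of the 39 genes, all more negative in CAF, where 3.02% of all tested genes were more negative and 2.44% more positive; the median difference was -0.60, against 0.0051 over all genes. The line and TGFb1 cannot be told apart in this contrast. Of 20 proliferation genes 4 were more negative and 0 more positive in it (median -0.57), so a shift of this kind was not particular to the 39. Of the 39, Fanci differed most (-1.40 ± 0.18, adjusted p = 0.000385): its effect was -0.996 in CAF and 0.40 in NF on the log2 scale. Its clamp partner Fancd2 had 12.5, 13.4 and 10.2 CPM with siHsp90aa1 against 19.6, 23.6 and 19.1 CPM with control siRNA in CAF, and 24.99, 28.2 and 22.4 against 19.7, 25.7 and 21.9 CPM in NF (difference -0.95 ± 0.18, adjusted p = 0.00534). Rad54l (-0.97 ± 0.19, adjusted p = 0.00604), Atm (-0.71 ± 0.14, adjusted p = 0.00795), Chek2 (-0.66 ± 0.14, adjusted p = 0.00855) and Timeless (-0.70 ± 0.15, adjusted p = 0.0112) followed. These 6 held in all fits without 1 library.

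The other 6 differences were Fanca (-0.96), Rad54b (-0.91), Brca1 (-0.87), Rad51ap1 (-0.86), Chek1 (-0.72) and Rad51c (-0.66), which include 4 of the 8 strand exchange genes when Rad54l is counted. Each lost its call in between 2 and 9 of the 12 fits without 1 library (adjusted p up to 0.112); the count fell to 6 without NF siHsp90aa1 replicate 2 or without CAF control replicate 2, and to 7 without NF siHsp90aa1 replicate 1. With the replicate block 22 of the 39 were more negative in CAF, against 6.84% of all genes, adding Bard1, Palb2, Brca2, Mre11a, Exo1, Brip1, Atr, Topbp1, Clspn and Msh6 (adjusted p 0.00915 to 0.0494 with the block in edgeR, 0.0675 to 0.307 without). None of the 5 resection genes differed without the block. The genes that fell with siHsp90aa1 in both lines were 5: Brip1, Fance, Msh6, Timeless and Topbp1, which is 83.3% of the 6 in NF and 17.9% of the 28 in CAF. Over all tested genes 49.5% of those that fell in NF also fell in CAF, and among the 39 genes 71.8% fell in CAF whatever they did in NF, so nothing about these 5 is read from their overlap. Fanci and Atm rose in NF and fell in CAF. The NF controls here are also the TGFb1 libraries of the comparison with vehicle, where both genes fell. Low values in those libraries would move the fall with TGFb1, the rise with siHsp90aa1 and the difference between the lines together.

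**Figure D3:**
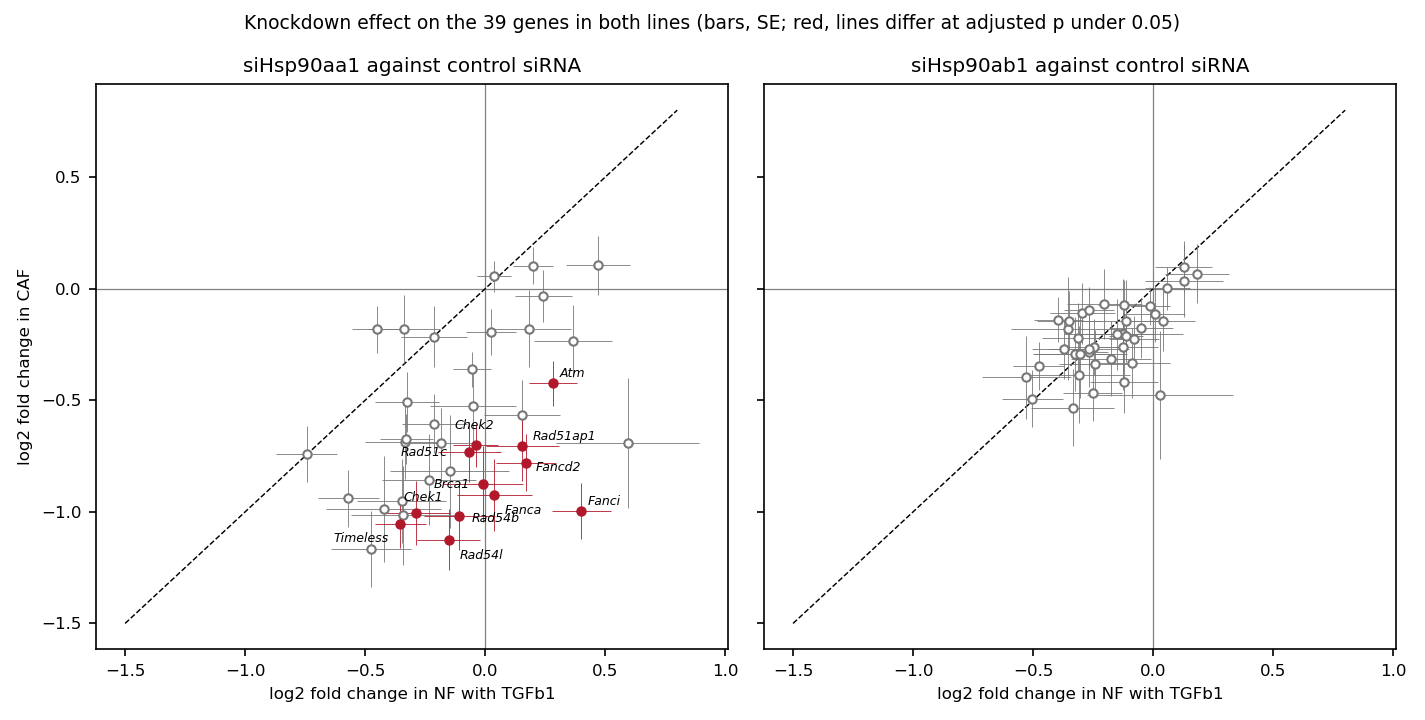
Log2 fold change with knockdown in CAF (vertical axis) against that in NF with TGFb1 (horizontal axis) for the 39 genes, with siHsp90aa1 on the left and siHsp90ab1 on the right; bars are standard errors, the dashed line marks equal effects and red marks an adjusted p under 0.05 for the difference. With siHsp90aa1 12 genes are red and all lie below the dashed line, and with siHsp90ab1 none is red.

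Knockdown of Hsp90ab1 moved few of these genes past the threshold. In CAF 0 of 39 were called with siHsp90ab1 against control siRNA in edgeR, where 0.9% of all tested genes were called. Of the 39, 11 reached an unadjusted p under 0.05 and DESeq2 called 3, all lower. The shares of all tested genes by those rules were not counted, so nothing is read from the 11 and the 3. Topbp1 had 145, 150 and 109 CPM with siHsp90ab1 and 201, 204 and 162 CPM with control siRNA (-0.49 ± 0.13, adjusted p = 0.0845), and Fanci had 9.17, 9.78 and 7.85 CPM with siHsp90ab1 against 12.9, 13.1 and 11.04 CPM with control siRNA (-0.47 ± 0.12, adjusted p = 0.0951). All 3 libraries with siHsp90ab1 were below all controls for both genes. As both were picked by their small p, this adds no separate support. Mre11a had 43.6, 46.5 and 39.3 CPM with siHsp90ab1 and 55.6, 54.7 and 47.2 CPM with control siRNA (-0.28 ± 0.079, adjusted p = 0.117). With the replicate block 5 fell, against 1.08% of all genes: Topbp1 (adjusted p = 0.00355 in edgeR), Fanci (0.00822), Chek1 (0.00911), Timeless (0.0173) and Mre11a (0.0391). The median of the 39 was -0.22, against -0.00094 over all tested genes. Of the 39 values 35 were below 0, a share that was not counted over all tested genes.

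In NF with TGFb1, siHsp90ab1 lowered 3 checkpoint genes and raised 0 of the 39 (edgeR), where 1.62% of all tested genes fell and 1.06% rose. Of the 39, 9 reached an unadjusted p under 0.05 and DESeq2 called 4, without a count over all tested genes by those rules. Timeless had 49.997, 50.2 and 48.1 CPM with siHsp90ab1 against 72.6, 71.4 and 62.3 CPM with control siRNA (-0.48 ± 0.11, adjusted p = 0.0190), Topbp1 138, 138 and 136 against 210, 198 and 177 CPM (-0.50 ± 0.13, adjusted p = 0.0392), and Atm 65.6, 68.3 and 66.4 against 89.1, 93.1 and 80.97 CPM (-0.39 ± 0.10, adjusted p = 0.0420). The groups did not overlap for any of these genes. All 3 calls were lost without any 1 of the libraries other than control replicate 3 (adjusted p 0.0700 to 0.183). With the replicate block 6 fell, against 3.27% of all genes, adding Rad54l, Mre11a and Clspn (adjusted p 0.0133 to 0.0303 with the block in edgeR, 0.0851 to 0.177 without). The effects in CAF and NF were not shown to differ: 0 of 39 were called for the difference, where 0.00657% of all tested genes were, and 0 reached an unadjusted p under 0.05 or were called by DESeq2. The 3 differences with the smallest p were Atm (0.26 ± 0.14), Chek1 (-0.30 ± 0.20) and Fanci (-0.22 ± 0.17), each with an adjusted p of 1.

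The knockdowns were also set directly against each other; the libraries with siHsp90ab1 had, as above, lower Hsp90aa1 levels than their controls as well. In CAF 22 of the 39 genes were lower and 1 was higher with siHsp90aa1 than with siHsp90ab1, where 13.3% and 13.1% of all tested genes were. Chek2 had 7.67, 7.46 and 8.53 CPM with siHsp90aa1 against 13.99, 11.7 and 12.9 CPM with siHsp90ab1 (-0.70 ± 0.10, adjusted p = 7.30e-05), and Timeless and Rad54l were lower by 0.71 and 0.86 on the log2 scale. Rad51c had 5.79, 5.83 and 4.01 CPM with siHsp90aa1 against 8.32, 9.89 and 8.99 CPM with siHsp90ab1 (-0.80 ± 0.13, adjusted p = 0.000418), and Msh6 and Brip1 were lower by 0.60 and 0.90. Rad51d was the gene that was higher with siHsp90aa1 (0.27 ± 0.071, adjusted p = 0.00952). The 22 included all but 2 of the checkpoint genes, 5 of 8 strand exchange genes and 4 of 8 core genes, and 13 of the 23 calls held in every fit without 1 library. The lower count was 13 without siHsp90ab1 replicate 1, and 14 without siHsp90ab1 replicate 2 or without siHsp90aa1 replicate 3. With the replicate block 26 were lower and 3 higher, against 17.3% and 18.3% of all genes; Bard1, Xrcc2, Blm and Usp1 joined the lower genes, and Slx4 and Atr joined Rad51d (adjusted p 0.000426 to 0.0439 with the block in edgeR, 0.0530 to 0.181 without).

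In NF with TGFb1 7 of the 39 genes were higher and 1 was lower with siHsp90aa1 than with siHsp90ab1, where 17.7% and 16.4% of all tested genes were. Atm had 111, 116 and 92.7 CPM with siHsp90aa1 against 65.6, 68.3 and 66.4 CPM with siHsp90ab1 (0.68 ± 0.10, adjusted p = 6.00e-05), and Fanci had 17.7, 19.2 and 13.02 against 10.03, 11.5 and 10.3 CPM (0.65 ± 0.12, adjusted p = 0.000527). Fance was the gene that was lower, with 10.9, 11.1 and 14.4 CPM with siHsp90aa1 against 19.1, 21.2 and 20.8 CPM with siHsp90ab1 (-0.75 ± 0.13, adjusted p = 0.000200). Fancd2 (0.42), Atr (0.43), Rad51ap1 (0.47), Fancg (0.52) and Mre11a (0.21) were higher. The share of higher genes was near the background, Atm, Fanci and Fance held in every fit without 1 library, and the higher count ranged from 2 to 8 over those fits; Atr lost its call without siHsp90aa1 replicate 2 or siHsp90ab1 replicate 1, Fancd2 without these or siHsp90ab1 replicate 2, and Fancg, Mre11a and Rad51ap1 in 4 or 5 of the 6 fits. With the block, where 21.8% of all genes were higher and 20.3% lower, Brca1 and Slx4 joined the higher genes and Msh6 the lower (adjusted p 0.0167 to 0.0322 with the block in edgeR, 0.0565 to 0.161 without).

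The comparison of TGFb1 with vehicle in NF and that of siHsp90aa1 with control siRNA in CAF share no library. Of the 16 genes that fell with TGFb1, 14 (87.5%) also fell with siHsp90aa1 in CAF, which is 50% of the 28 there. Of all 39 genes 71.8% fell with siHsp90aa1 in CAF, so nothing is read from this overlap; over all tested genes 18.8% of those that fell with TGFb1 also fell there. Rad51d and Fancl fell with TGFb1 alone by these calls; whether their effects differ between the comparisons was not tested. Averaged over the 39 genes, the mean log2 CPM was 3.60 in CAF with siHsp90aa1, 3.998 with siHsp90ab1 and 4.22 with control siRNA. In NF it was 4.26 with siHsp90aa1, 4.17 with siHsp90ab1 and 4.36 with control siRNA, all with TGFb1, and 4.69 with vehicle.

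Other genes of the same pathways were counted in the same way. In CAF with siHsp90aa1, where 12.9% of all tested genes fell and 12.5% rose, 12 of 27 other recombination genes fell and 1 rose (median -0.31). The end-processing nuclease gene Dna2 had the smallest p of these (-1.76 ± 0.22, adjusted p = 2.84e-05 in edgeR). Of the other lists, 3 of 9 other Fanconi genes and 6 of 19 other checkpoint genes fell with 0 rises. Of 9 end joining genes, the alternative route of break repair, 0 were called by edgeR or DESeq2 and 1 was higher at an unadjusted p under 0.05 (median 0.11); Xrcc5, with the smallest p, had a value of 0.18 (adjusted p = 0.0771 in edgeR), and with the replicate block 2 rose. In CAF against NF, where 30% of all tested genes fell and 31.6% rose, the counts were 13 fallen and 3 risen of the recombination genes, 4 and 3 of the Fanconi genes, 8 and 1 of the checkpoint genes, and 3 and 3 of the end joining genes, among which Xrcc6 fell (-0.61 ± 0.068, adjusted p = 3.69e-07); those of the Fanconi and end joining genes lie near the shares of all genes. Etaa1, another activator of ATR, fell there too (-1.40 ± 0.12, adjusted p = 9.23e-09). With TGFb1, against 14.4% fallen and 14.6% risen of all genes, the same counts were 7 and 0, 2 and 1, 4 and 1, and 3 and 2. With the replicate block, where 18.6% of all genes fell, 13 recombination genes and 4 Fanconi genes fell, and 6 checkpoint genes fell and 3 rose. With siHsp90aa1 in NF, against 13.5% and 14.8%, the counts without the block were 4 and 2, 2 and 2, 5 and 1, and 1 and 4. With the block, where 18% of all genes fell and 19.3% rose, 5 recombination genes fell and 5 rose. With siHsp90ab1 the block added 1 fallen recombination gene in CAF, where 1.08% of all genes fell with it, and 1 risen end joining gene in NF. Without the block edgeR and DESeq2 called 0 with siHsp90ab1 in either line. Of the rises with the block in these lists, only those with siHsp90aa1 in NF have a share of all genes beside them. Nothing is read from the other rises. At an unadjusted p under 0.05 siHsp90ab1 had 4 lower recombination genes in CAF and 1 in NF, 1 lower and 1 higher checkpoint gene in CAF and 2 lower in NF, 0 Fanconi genes in CAF and 1 lower in NF, and 0 end joining genes in CAF and 2 higher in NF.

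Genes of proliferation moved beside the set. Of 20 such genes, all 20 fell with siHsp90aa1 in CAF (median -0.90), where 12.9% of all tested genes fell. The replication clamp gene Pcna had the smallest p (-1.28 ± 0.13, adjusted p = 6.16e-06 in edgeR). In NF with siHsp90aa1 7 fell and 0 rose (median -0.31), with TGFb1 7 and 0 (-0.33), and in CAF against NF 12 and 1 (-0.62). Of all tested genes, in the same order, 13.5% fell and 14.8% rose, 14.4% and 14.6%, and 30% and 31.6%. With siHsp90ab1 1 fell in NF, Mcm4 (-0.46 ± 0.12, adjusted p = 0.0479 in edgeR), and 0 in CAF, where the median was -0.22, 6 were lower at an unadjusted p under 0.05 and DESeq2 called 1. By edgeR's adjusted p 1.62% of all tested genes fell in NF and 0.433% in CAF. With the replicate block 14 fell in CAF against NF, 13 with TGFb1, 16 with siHsp90aa1 in NF, and 6 in NF and 3 in CAF with siHsp90ab1 (edgeR). The shares of all tested genes that fell with the block were 32.5%, 18.6%, 18%, 3.27% and 1.08% in the same order. The mean log2 CPM of the 20 genes was 5.69 in CAF with siHsp90aa1 against 6.66 with control siRNA, and 6.43 in NF with siHsp90aa1 against 6.83 with control siRNA. With siHsp90aa1 against siHsp90ab1 all 20 were lower in CAF (median -0.72), where 13.3% of all tested genes were. In NF 3 were lower and 0 higher (median -0.073), where 16.4% of all tested genes were lower and 17.7% higher. For the siHsp90aa1 effect in CAF minus NF 4 were more negative and 0 more positive (median -0.57), against 3.02% and 2.44% of all genes. With the block 16 were more negative, against 6.84%. The part of cell cycling in the changes of the 39 genes was not tested. Beside the falls among the 39, Rad51d, Slx4, Atr and Fancl had values between -0.032 and 0.10 in CAF with siHsp90aa1, none called.

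Rad51b, Fancc, Fancf and Atrip were called in none of the 6 comparisons of a treatment, knockdown or line with its control, with or without the block (edgeR). Rad51b was the least abundant of the 39, at 0.296 to 0.865 CPM over the 21 libraries, and its largest difference there was -0.69 ± 0.29 with siHsp90aa1 in CAF (adjusted p = 0.0899 in edgeR). Atrip, the partner of ATR, lay between 10.999 and 15.6 CPM, Fancf between 4.19 and 8.03 CPM and Fancc between 4.37 and 8.98 CPM.

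**Figure D4:**
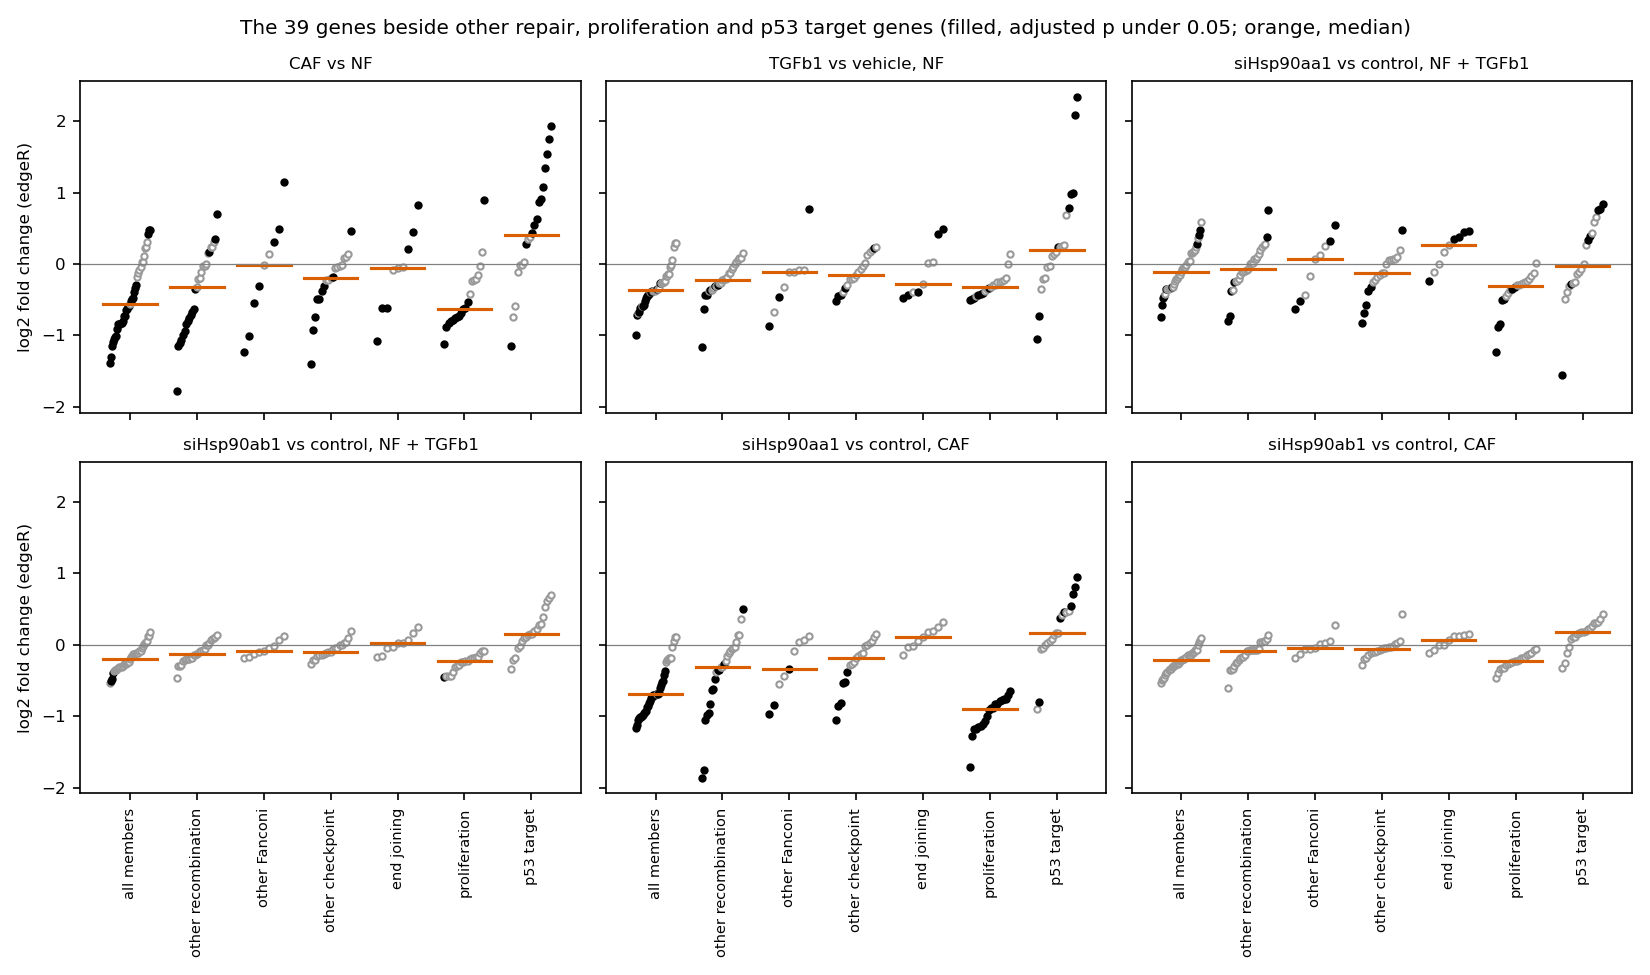
Log2 fold changes (edgeR) of the 39 genes and of 6 other gene lists in 6 comparisons; each point is a gene, filled at an adjusted p under 0.05, and the orange line is the list's median. In CAF with siHsp90aa1 the proliferation genes (median -0.90) lie below the 39 genes (-0.69), and the end joining genes (0.11) lie near 0.

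Some reads cannot be assigned to a member with certainty. More than 10% of the exonic length of Rad54l (15.4%, with Lrrc41), Fanca (10.5%, with Zfp276), Fanci (16.0%, with Polg), Fancf (14.96%, with Gas2), Fancl (13.7%, with Vrk2) and Fancc (18.6%) overlaps a gene on the opposite strand, and the strand setting of the counting is not given in the sources used here. Rad54b shares 35.8% of its exonic length with Fsbp and Atrip 16.0% with Trex1 on the same strand, so values of these members may hold reads of the neighbour. The genes lie on 14 chromosomes and are all annotated as protein coding: in GRCm38 Timeless spans chromosome 10 from 128232065 to 128252941, Rad54l chromosome 4 from 116094264 to 116123690, Fanci chromosome 7 from 79391929 to 79450264 and Topbp1 chromosome 9 from 103305215 to 103350428.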

How the data were processed

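Estimated counts per gene from 21 libraries of stranded mRNA were used. Per the submitters' processing notes the tools were STAR and Salmon and the genome GRCm38, with no versions. The authors deposited these expected counts without normalisation. Rounding to whole numbers, needed for 10.9% of entries, moved none by more than 0.5. TPM values that the authors deposited served only to order levels between genes.

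Low genes were removed with edgeR's filterByExpr (edgeR 4.0.16, R 4.3.3; at least 10 counts and a total of 15, group-wise), libraries were scaled by TMM, and a quasi-likelihood model with a coefficient for each group was fitted to all 21 together, leaving 14 residual degrees of freedom. Each of 10 contrasts was tested by a quasi-likelihood F test and adjusted by Benjamini-Hochberg over 15230 genes. The standard error is the log2 fold change divided by the square root of F; the prior count was 0.125. The alternatives were the replicate block, DESeq2 1.42.0, RLE factors, no filter, a fit of only the groups compared, and leaving out each library. Shares of all tested genes are given for edgeR's adjusted p and for part of the block fits. They are not given for unadjusted p or DESeq2, so those counts have no background.

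The labels give the replicate number as a batch, so same-numbered libraries are paired. Over 9340 genes with a mean log2 CPM over 3, their deviations from group means correlated at r over 0.1 in 55 of 63 pairs (mean 0.347, range -0.104 to 0.914). Libraries of unlike number correlated at a mean of -0.167. As the deviations in each group sum to 0, the -0.167 largely follows from the 0.347 and adds no separate support. The main fit has no block, so its p ignores this pairing. With the block more members were lower in several comparisons: 25 against 16 with TGFb1, and 5 against 0 with siHsp90ab1 in CAF. For the siHsp90aa1 effect in CAF minus NF it was 22 against 12, and with siHsp90aa1 in CAF 28 in both fits. In chi-square tests of counts between replicates the statistic was 17.5 to 154 times its degrees of freedom, so none was counted as 1 sample. Depth was 35087162 to 70421549 counts, and the spread between libraries sets the precision.

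The members and gene lists were chosen with earlier results of these data known. In each comparison up to 6 called members with the smallest p have full statistics, or the 3 with the smallest p where fewer than 3 passed. Other members with full statistics were picked after their values were seen, to show a role. Where groups of such members are said not to overlap, this describes the libraries only. The share of all tested genes without overlap is not given. For each list the gene with the smallest p may be named, and for TPM the highest and lowest of each role. Promoters came from a RefSeq table of GRCm38.p6 that matched 31 of the 39 symbols.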

Additional observations from a re-analysis of the deposited data

Results flagged for a closer look

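The effect of siHsp90aa1 in CAF minus that in NF with TGFb1 passed a test of the difference itself (edgeR quasi-likelihood contrast, adjusted p under 0.05) for 12 of the 39 genes, all more negative in CAF. Of all tested genes 3.02% were more negative and 2.44% more positive. The log2 differences were -1.40 for Fanci, -0.97 for Rad54l, -0.96 for Fanca, -0.95 for Fancd2, -0.91 for Rad54b and -0.87 for Brca1. They were -0.86 for Rad51ap1, -0.72 for Chek1, -0.71 for Atm, -0.70 for Timeless, -0.66 for Chek2 and -0.66 for Rad51c. Only 6 of the 12 calls held in every fit without 1 library: Fanci, Fancd2, Rad54l, Atm, Chek2 and Timeless. The others lost theirs in between 2 (Rad54b) and 9 (Brca1, Chek1 and Rad51c) of the 12 fits. The NF libraries had TGFb1 and the CAF libraries vehicle, so the line and TGFb1 cannot be told apart. The mean log2 level of 20 proliferation genes moved beside them. It was 5.69 in CAF with siHsp90aa1 against 6.66 with control siRNA, and 6.43 in NF with siHsp90aa1 against 6.83 with control siRNA. In the same contrast 4 of these 20 were called more negative in CAF and 0 more positive (median -0.57). The part of proliferation in these differences was not tested.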

How the results depend on the processing

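No called result changed direction under the alternatives run; the median of siHsp90ab1 for CAF minus NF, -0.054, which carries no call, was 0.044 without CAF siHsp90ab1 replicate 3. With the replicate block, 25 members were lower with TGFb1, 11 lower and 5 higher with siHsp90aa1 in NF, 6 lower with siHsp90ab1 in NF and 5 lower with siHsp90ab1 in CAF. With the block 2 were lower in NF and 3 higher in CAF with siHsp90aa1 than with siHsp90ab1, and 22 more negative for siHsp90aa1 in CAF than in NF; the block changed no call of a member other than those given in the report. DESeq2 called 3 lower with siHsp90ab1 in CAF. With no filter 0 were higher in CAF with siHsp90aa1 than with siHsp90ab1, and the medians in CAF were -0.73 with siHsp90aa1 and -0.24 with siHsp90ab1. Fitting only the groups compared gave 1 higher with siHsp90aa1 and 5 lower with siHsp90ab1 in NF. The cause was not tested.

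Leaving out each library gave these ranges. CAF against NF had 2 to 4 higher and 23 to 26 lower, with medians of -0.61 to -0.47. TGFb1 had 12 to 16 lower (-0.44 to -0.29). In NF siHsp90aa1 had 0 to 4 higher and 3 to 6 lower (-0.20 to -0.025), and siHsp90ab1 0 to 3 lower (-0.26 to -0.15). In CAF siHsp90aa1 had 24 to 28 lower (-0.77 to -0.60), and siHsp90ab1 a median of -0.32 to -0.14. With siHsp90aa1 against siHsp90ab1, NF had 2 to 8 higher (0.01 to 0.15), and CAF 0 to 1 higher and 13 to 25 lower (-0.59 to -0.37). CAF minus NF had 6 to 13 more negative with siHsp90aa1 (-0.72 to -0.46), and medians of -0.12 to 0.044 with siHsp90ab1. The log2 change of the target ranged from -3.63 to -3.10 in CAF and -3.53 to -2.71 in NF for Hsp90aa1, and from -3.57 to -3.12 and -3.19 to -2.71 for Hsp90ab1. Among named members, 12 calls were lost with no filter, 19 with only the groups compared, and 2 with RLE factors, Topbp1 in CAF against NF (adjusted p = 0.0505 in edgeR) and Mre11a in siHsp90aa1 against siHsp90ab1 in NF (0.0504).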

Other observations

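Of 20 p53 target genes, which respond to DNA damage signalling, 11 were higher and 1 lower in CAF than in NF (edgeR, median 0.40), where 31.6% of all tested genes were higher and 30% lower. The cyclin gene Ccng1 had the smallest p there (1.75, adjusted p = 3.50e-11 in edgeR). With TGFb1 6 were higher and 2 lower in NF (median 0.20), against 14.6% and 14.4% of all genes. The growth arrest gene Gadd45a had the smallest p there (2.08, adjusted p = 1.16e-06 in edgeR). With siHsp90aa1 6 were higher and 1 lower in CAF (median 0.17), against 12.5% and 12.9% of all genes; the gene with the smallest p, Eda2r, fell (-0.81). In NF 5 were higher and 2 lower with siHsp90aa1 (median -0.03), against 14.8% and 13.5% of all genes; Pmaip1, a gene of apoptosis, fell (-1.56). With siHsp90ab1 edgeR called 0 in either line; at an unadjusted p under 0.05 3 were higher and 1 lower in CAF and 5 higher and 1 lower in NF, and DESeq2 called 0 in CAF and 2 higher and 1 lower in NF. With the replicate number as a block the counts were 13 higher and 3 lower in CAF against NF, 8 and 2 with TGFb1, 7 and 2 with siHsp90aa1 in CAF, 8 and 5 with siHsp90aa1 in NF, and 3 and 1 with siHsp90ab1 in NF (edgeR). Of all tested genes 33.8% were higher and 32.5% lower with the block in CAF against NF, and 19.3% and 18% with siHsp90aa1 in NF. Lower with the block were 18.6% with TGFb1 and 3.27% with siHsp90ab1 in NF. Shares with the block are not given for siHsp90aa1 in CAF, nor for higher genes with TGFb1 or with siHsp90ab1 in NF. Nothing is read from those counts.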
